A study of Mus musculus with 2 samples.

Results

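The genes described here are 9 enzymes of sphingolipid metabolism: the sphingomyelinases Smpd1 and Smpd2, the ceramidase Asah1, the serine palmitoyltransferase subunits Sptlc1 and Sptlc2, the ceramide synthase Cers2, the desaturase Degs1, the sphingosine 1-phosphate lyase Sgpl1 and the glucosylceramide synthase Ugcg. Every Affymetrix probe set whose annotated symbol is one of these genes was taken, which gave 16 probe sets for the 9 genes, out of 22626 probe sets and 12393 genes on the array. Liver RNA came from mice lacking apolipoprotein E (Apoe), which develop high plasma cholesterol and arterial lesions, and both diets were high in fat. One diet was enriched in the oil's unsaponifiable fraction, the small part of olive oil that is not made of fatty acid esters (the sample titled orujo, here the orujo array), and the other was enriched in olive oil itself (the sample titled olive, here the olive array). Each diet is represented by 1 array, so no test between diets is possible, every ratio has no error between animals, and no p-value is given. Whether an array holds 1 animal or a pool is unstated, as are sex, age and strain background. The genes were proposed with the ratios of these arrays known, so the ratios are a description.

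Sphingolipids are membrane lipids built on a long-chain base. Their synthesis starts in the endoplasmic reticulum, where serine and a fatty acyl-CoA are joined, an acyl chain is added and a double bond is made to give ceramide. Ceramide is then turned into sphingomyelin or glucosylceramide, or broken down to sphingosine and sphingosine 1-phosphate, and sphingomyelinases return sphingomyelin to ceramide. The liver is a main site of ceramide synthesis and places sphingolipids on the lipoproteins it secretes.

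The stretch of 250 bases before the annotated start was read for 8 of the 9 genes from RefSeq (build GRCm38.p6), with no entry for Asah1. The promoters of Smpd2, Smpd1 and Ugcg are shown because Smpd2 is the enzyme that differed between the arrays, Smpd1 is the sphingomyelinase that differed little, and Ugcg is the other enzyme with a probe set above background on 1 array only. Capitals mark the GC box GGGCGG on either strand, each sequence runs 5′ to 3′ toward the start of the gene, and Smpd2 lies on the minus strand (chr10:41490341-41490590), Smpd1 on the plus strand (chr7:105554110-105554359) and Ugcg on the plus strand (chr4:59189300-59189549).
Smpd2: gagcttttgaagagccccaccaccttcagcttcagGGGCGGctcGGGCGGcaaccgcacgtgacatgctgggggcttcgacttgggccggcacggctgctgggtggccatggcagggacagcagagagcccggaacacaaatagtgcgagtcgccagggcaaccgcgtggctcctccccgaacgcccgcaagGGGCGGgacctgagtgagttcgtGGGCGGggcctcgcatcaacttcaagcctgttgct
Smpd1: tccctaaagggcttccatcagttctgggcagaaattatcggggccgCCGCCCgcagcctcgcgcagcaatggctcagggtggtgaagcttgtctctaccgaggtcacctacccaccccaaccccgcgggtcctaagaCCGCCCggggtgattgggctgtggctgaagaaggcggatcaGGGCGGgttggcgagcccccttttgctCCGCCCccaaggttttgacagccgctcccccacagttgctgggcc
Ugcg: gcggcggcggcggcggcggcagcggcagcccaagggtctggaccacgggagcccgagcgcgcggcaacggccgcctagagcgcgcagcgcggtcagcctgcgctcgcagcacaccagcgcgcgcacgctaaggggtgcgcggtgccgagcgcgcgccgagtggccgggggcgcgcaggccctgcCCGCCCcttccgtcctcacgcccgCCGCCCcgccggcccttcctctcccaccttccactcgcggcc
The Smpd2 and Smpd1 stretches each held 4 GC boxes, those of Smpd2 beginning 215, 206, 58 and 35 bases before the start and those of Smpd1 beginning 204, 113, 72 and 45 bases before it. Ugcg had 2, at 66 and 42 bases. Of the 9 promoters of these enzymes (Cers2 has 2 starts), 7 held GGGCGG or its reverse complement CCGCCC, against 32.7% of all 32851 promoters in the RefSeq table. The letters CACGTG were found in 3 of 9 (Smpd2, Cers2 and Degs1) against 6.02% of all promoters, CCAAT or ATTGG in 4 of 9 against 33.8%, and TATAAA or TTTATA in 0 of 9 against 12.4%. No 2 matches overlapped. The GC content of the 9 stretches had a median of 66.4% (54.0% to 80.4%), against a median of 52.4% over all promoters. These matches describe the letters of the window, and their part in the array ratios was not tested.

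Values are probe set intensities in arbitrary units, as the authors deposited them. A floor at the median of both arrays pooled, 35.6, stands in for detection calls. A probe set above it on both arrays is called measured, and one above it on 1 array only has a bound, its signal against the floor. Of the 16 probe sets, 10 were measured, 2 were above the floor only on the olive array, 0 only on the orujo array and 4 on neither. The 10 measured probe sets belong to 8 of the 9 enzymes. Levels are compared within a probe set only.

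The sphingomyelinases gave the one large difference among these enzymes. Smpd2 encodes a neutral sphingomyelinase, which splits sphingomyelin into ceramide and phosphocholine at neutral pH. Its single probe set had a signal of 28.2 on the orujo array, below the floor, and 175.9 on the olive array. Against the floor this is at least 4.94-fold lower on the orujo array (log2 bound −2.30). Smpd1 encodes the acid sphingomyelinase of the lysosome, the enzyme deficient in human Niemann-Pick disease types A and B. Its probe set had 336.0 on the orujo array and 313.9 on the olive array, 1.07-fold higher (log2 ratio 0.10). The neutral and the acid enzyme, which carry out the same reaction, had unlike ratios on the same arrays, each from 1 probe set. Smpd3 and Smpd4, other neutral sphingomyelinase genes, had signals close to the floor on both arrays, so their ratios say little. Smpd3 had 42.7 on the orujo array and 35.8 on the olive array (log2 ratio 0.25, with the second value at the floor). Smpd4, named after its values were seen, had 44.3 on orujo and 44.9 on olive (log2 ratio −0.02).

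**Figure D1:**
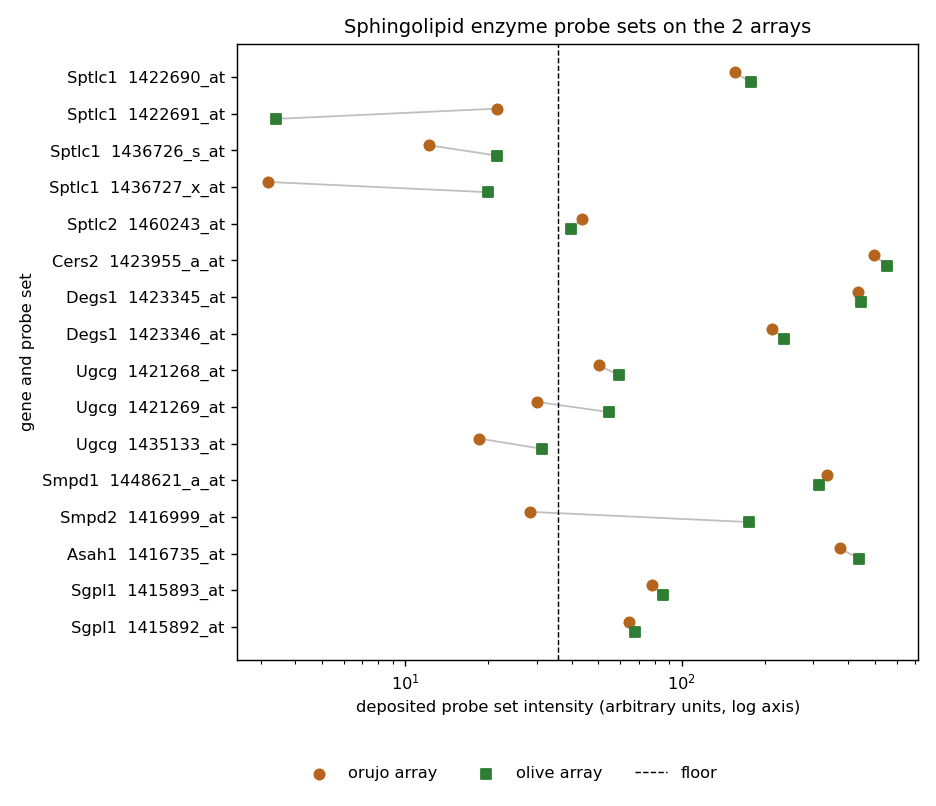
Deposited intensity (arbitrary units, log axis) of the 16 probe sets of the 9 sphingolipid enzymes, with the orujo array as circles and the olive array as squares, 1 array each, and the floor of 35.6 as a dashed line. Smpd2 has 28.2 on orujo and 175.9 on olive, while the 10 probe sets right of the floor on both arrays have pairs of symbols that lie close together.

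The Smpd2 signal was set beside the probe sets of like brightness, with Smpd2 itself counted among them. Smpd2 was singled out for its ratio in these same data, so the shares are a description. On the olive array 1120 probe sets lay within 1.2-fold of the Smpd2 signal (147 to 211), and 5 of these, or 0.446%, were below the floor on the orujo array. Apart from Smpd2 they were 1 probe set without a gene name and probe sets of Zg16, Sycn and Clps, named here after their values were seen. Zg16 and Sycn encode proteins of the zymogen granule and Clps the colipase of pancreatic juice. Zg16 had 19.5 on the orujo array and 203.8 on the olive array, Sycn had 22.3 on orujo and 184.1 on olive, and this Clps probe set had 25.8 on orujo and 157.4 on olive. In the other direction, 1 of 1116 probe sets of that brightness on the orujo array was below the floor on the olive array, a probe set of the leptin receptor gene Lepr, also named after its values were seen. Of the 971 probe sets above the floor only on the olive array, 2.78% were lower by a bound of at least 2-fold, Smpd2 among them. In the other direction 4.6% of 718 probe sets were higher by such a bound, with 0 of these enzymes among them.

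Transcripts of the exocrine pancreas were lower on the orujo array as well, over the whole marker list. This list was chosen with earlier results of these data known, so its counts are a description. Of the 10 listed acinar markers 8 had a probe set, and 8 of 8 were measured. At least 2-fold lower on the orujo array were 8 of 8, against 1.08% of all measured probe sets. Their summed signal was 666.6 on that array and 5141.8 on the olive array, and their log2 ratios ran from −3.72 (Ctrb1, chymotrypsinogen) to −2.44, with a median of −2.86. With the floor used here Smpd2 has only a bound (−2.30), which cannot be placed inside or outside that range. With the floor at the 25th percentile Smpd2 had a log2 ratio of −2.64, which lies inside the range. That ratio rests on an orujo signal that the floor used here treats as background. No marker of the list was at 0 on either array, Ctrb1 having 59.2 on the orujo array and 778.0 on the olive array. The part of these transcripts in the Smpd2 difference was not tested. In tissue RNA, fewer cells of a type and less RNA per cell cannot be told apart.

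**Figure D2:**
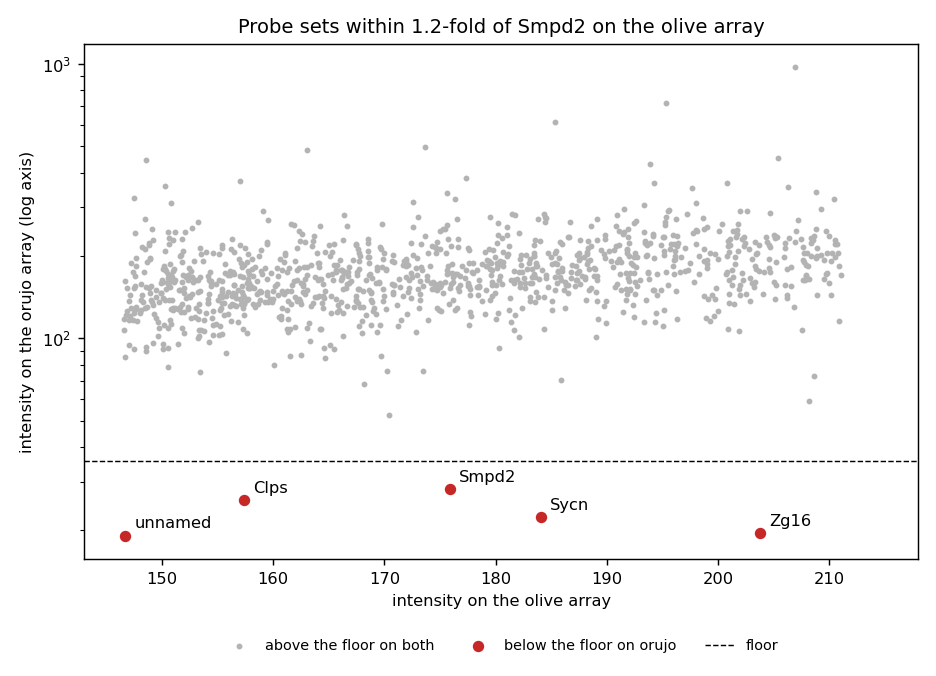
Intensity on the orujo array (log axis) against intensity on the olive array for the 1120 probe sets within 1.2-fold of Smpd2 on the olive array, with the floor of 35.6 as a dashed line. The 5 probe sets below the floor on the orujo array are labelled by gene: Smpd2, Clps, Sycn, Zg16 and 1 without a name.

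The enzymes of de novo ceramide synthesis differed little. Sptlc1 encodes a subunit of serine palmitoyltransferase, which makes the long-chain base in the first and committed step. Its brightest probe set had 155.5 on the orujo array and 177.6 on the olive array (log2 ratio −0.19). Its other 3 probe sets were below the floor on both arrays and did not share a direction: the second had 21.5 on the orujo array and 3.4 on the olive array, the third 12.2 on orujo and 21.5 on olive, and the last 3.2 on orujo and 19.9 on olive. The suffixes of the last pair mark sequence shared with other transcripts, and no fold is given here for probe sets below the floor on both arrays. Sptlc2, the partner subunit that carries the catalytic lysine, had 43.8 on the orujo array and 39.8 on the olive array (log2 ratio 0.14), both just above the floor. The subunits of this heteromeric enzyme had ratios of opposite sign, both smaller than the noise given below for a single probe set.

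Cers2 encodes the ceramide synthase that attaches very long acyl chains and is the main form in liver. Its probe set had 496.1 on the orujo array and 555.9 on the olive array, 1.12-fold lower (log2 ratio −0.16). Degs1, the desaturase that turns dihydroceramide into ceramide, was read by 2 measured probe sets. The brighter had 436.1 on the orujo array and 445.3 on the olive array (log2 ratio −0.03). The dimmer had 211.8 on orujo and 234.0 on olive (log2 ratio −0.14). They agreed in sign and differed from each other by 0.11 log2 units.

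The enzymes that remove ceramide and sphingosine 1-phosphate also differed little. Each of their measured probe sets was lower on the orujo array, by less than the noise given below for a single probe set. Asah1, the acid ceramidase of the lysosome, had 374.6 on the orujo array and 439.2 on the olive array, 1.17-fold lower (log2 ratio −0.23). Sgpl1, the lyase that irreversibly cleaves sphingosine 1-phosphate and so closes the pathway, was also read by 2 measured probe sets. The brighter had 78.2 on the orujo array and 85.8 on the olive array (log2 ratio −0.13), and the dimmer had 64.3 on orujo and 68.1 on olive (log2 ratio −0.08). These differed from each other by 0.05 log2 units.

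Ugcg encodes glucosylceramide synthase, which commits ceramide to glycosphingolipids, and all 3 of its probe sets were lower on the orujo array. The brightest was measured, with 50.1 on the orujo array and 59.6 on the olive array (log2 ratio −0.25, the lowest of the 10 measured values). The second had 29.9 on the orujo array, below the floor, and 54.7 on the olive array, at least 1.54-fold lower. The third had 18.5 on orujo and 31.2 on olive, both below the floor. The shared direction comes from 1 pair of RNA samples, and the sizes differ between probe sets.

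Over the 10 measured probe sets the log2 ratio ran from −0.25 to 0.14, with a median of −0.14. Of them 8 were negative and 2 positive, while over all 10462 measured probe sets the median was −0.01 and 51.6% were negative. At least 2-fold higher were 0 of 10 and at least 2-fold lower 0 of 10, against a background of 1.33% and 1.08% of measured probe sets. At least 1.5-fold higher were 0 of 10 and at least 1.5-fold lower 0 of 10, against 5.79% and 5.66%. These counts are close to their background. The only repeated measurement in these data is between probe sets of 1 gene, which share RNA, labelling and hybridisation. Over 2057 genes with 2 measured probe sets, the SD of the difference between the paired log2 ratios was 0.43, or 0.30 as the noise of a single probe set. Each of the 10 log2 ratios was smaller than 0.30 in size. The Smpd2 bound was larger in size. The noise comes from probe sets above the floor on both arrays, which Smpd2 was not, so it does not measure the spread of such bounds. Of 12151 probe sets with a ratio or bound, 31 were as low as Smpd2 (0.255%), itself included, and 14 were as high in the other direction. Ratios and bounds are ranked together there, and a bound depends on the floor. By 1 probe set per gene, the median over 8 measured enzymes was −0.15, with 6 negative and 2 positive, against a median of −0.02 over 6640 measured genes.

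**Figure D3:**
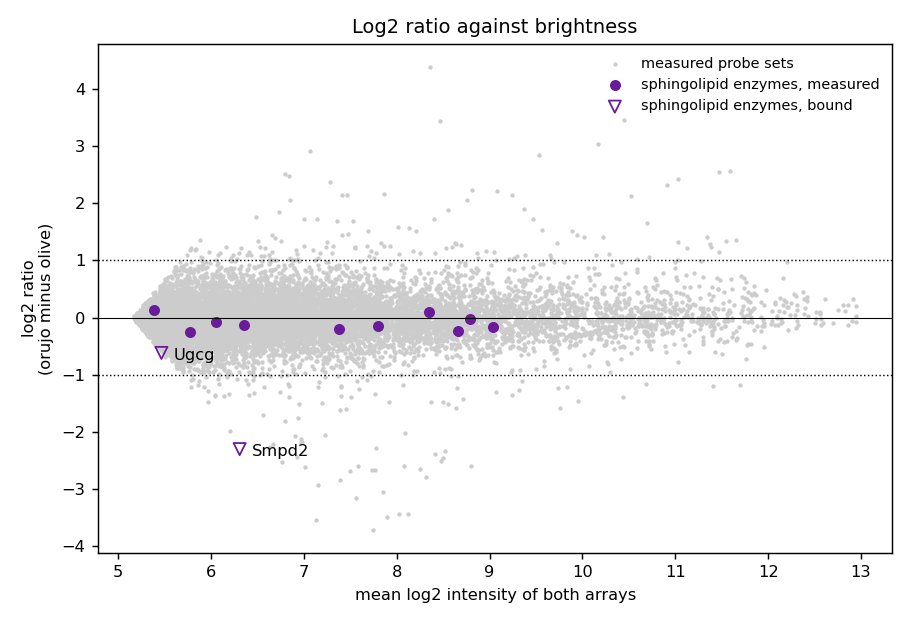
Log2 ratio (orujo minus olive) against mean log2 intensity for 10462 measured probe sets in grey, with the 10 measured sphingolipid probe sets filled and the bounds of Smpd2 and Ugcg as open triangles. Dotted lines mark 2-fold. The filled points lie between −0.25 and 0.14, and Smpd2 lies at −2.30.

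The rest of the pathway was read from a list of 62 other sphingolipid genes in 5 roles, of which 48 had a probe set and 29 were measured. Their median log2 ratio was 0.01, with 13 negative and 16 positive. At least 1.5-fold higher was 1 of 29 and at least 1.5-fold lower were 2 of 29, against a background of 5.45% and 5.62% of measured genes, and 0 passed 2-fold in either direction. A further 3 were above the floor only on the orujo array and 0 only on the olive array, with 0 bounds past 1.5-fold.

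The 3 genes past 1.5-fold were Aldh3a2, Arsa and Gm2a. Aldh3a2 encodes the dehydrogenase that oxidises the fatty aldehyde released by Sgpl1, and it had 402.9 on the orujo array and 689.6 on the olive array, 1.71-fold lower. Arsa, arylsulfatase A of the lysosome, which removes sulfate from sulfatide, had 117.1 on orujo and 217.1 on olive, 1.85-fold lower. Gm2a, the activator protein that presents a ganglioside to hexosaminidase, had 573.6 on the orujo array and 349.3 on the olive array, 1.64-fold higher, but its second measured probe set was at −0.39 on the log2 scale. The probe sets of Gm2a disagree in sign.

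By role, the de novo synthesis genes outside the 9 had 3 measured members with a median log2 ratio of 0.18, between Cers5, another ceramide synthase, at −0.01 and Ormdl1, of a family that restrains serine palmitoyltransferase, at 0.49. Genes of sphingomyelin turnover and ceramide transport had 7 measured members with a median of 0.03, between Cptp, a ceramide 1-phosphate transfer protein, at −0.14 and Smpd3 at 0.25. Smpd2, of the same role, had a bound of −2.30. Ceramidase and sphingosine 1-phosphate genes had 8 measured members with a median of −0.21, between Aldh3a2 at −0.78 and Spns2, the sphingosine 1-phosphate exporter, at 0.36. Glycosphingolipid synthesis genes had 4 measured members with a median of −0.10. The lowest was Fa2h, which hydroxylates the fatty acids of sphingolipids, at −0.37. The highest was St3gal5, the sialyltransferase that turns lactosylceramide into a simple ganglioside, at 0.54 (1101.9 on the orujo array and 760.2 on the olive array), with 0.69 in its second measured probe set. Genes of lysosomal glycosphingolipid breakdown had 7 measured members with a median of 0.00, between Arsa at −0.89 and Gm2a at 0.72.

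**Figure D4:**
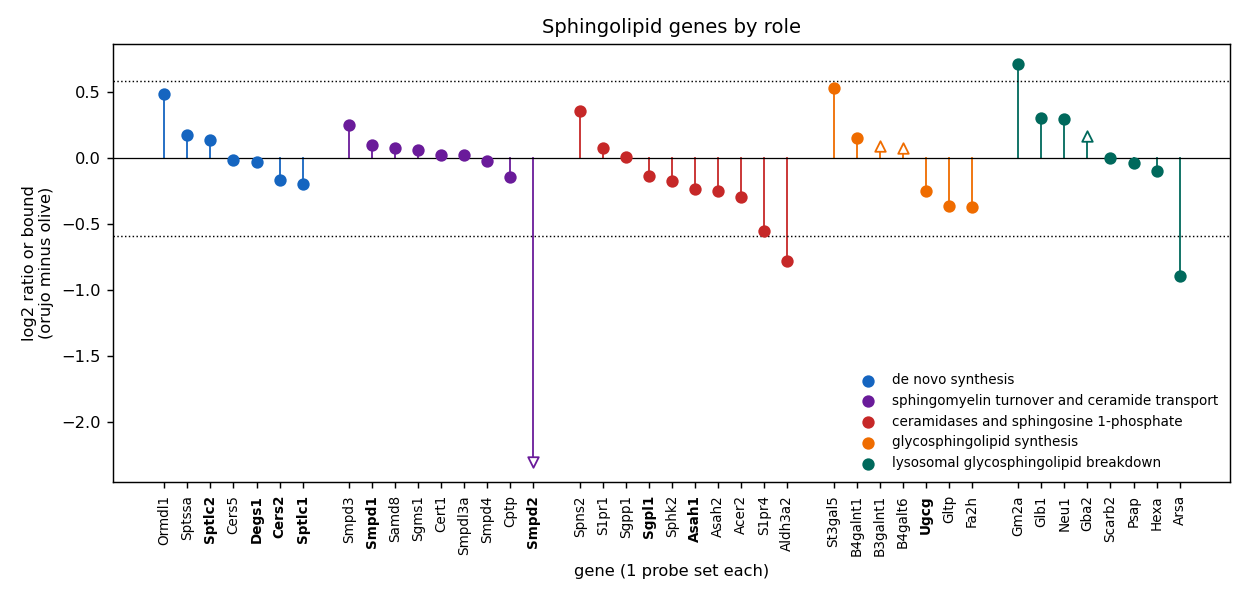
Log2 ratio (orujo minus olive) of each sphingolipid gene above the floor on at least 1 array, by its brightest probe set and grouped by role, with the 9 enzymes in bold, bounds as open triangles and 1.5-fold as dotted lines. Smpd2 has a bound of −2.30, and Arsa (−0.89), Aldh3a2 (−0.78) and Gm2a (0.72) lie past the dotted lines.

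Of the other cell types the RNA could hold, macrophages are rich in lysosomal enzymes such as Asah1 and Smpd1. All 9 macrophage and Kupffer cell markers were measured, with summed signals of 3858.4 on the orujo array and 3639.0 on the olive array and a median log2 ratio of 0.03. Hepatocyte markers, of which 7 of 8 had a probe set and 7 of 7 were measured, summed to 40505.8 on orujo and 39607.1 on olive (median 0.06), so the labelled tissue had its defining transcripts on both. Among measured markers Col3a1 was highest (0.72) and Ctrb1 lowest. Apoe had 99.6 on the orujo array and 102.7 on the olive array. The sources used do not say whether its probe set lies outside the deletion, so it checks no label. The control probe sets for 18S ribosomal RNA had log2 ratios of 2.54 for the 5′ end, 2.48 for the middle and 0.34 for the 3′ end. Their part in the ratios above was not tested.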

How the data were processed

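Liver RNA of mice lacking apolipoprotein E was measured on 2 Affymetrix arrays, 1 per diet, with targets made from about 8 µg of total RNA per the labels. The intensity values were deposited by the authors on a linear scale, and their 2% trimmed mean of 100.05 on both arrays shows a common scaling. The summarising software and any detection calls are unstated in the labels. After 64 control probe sets were set apart, intensities were used as deposited. Values under the floor (50th percentile of both arrays pooled, 35.6) were raised to it before log2, and ratios are the orujo array minus the olive array. The platform annotation gave 1 symbol to 20380 of 22626 probe sets, several to 691 and none to 1555. Entrez identifiers of 20351 matched the RefSeq gene table (GRCm38.p6), and 0 symbols changed. A gene in a list was read from its brightest probe set. The size limits were 2-fold and 1.5-fold, and no test was possible. On simulated data for this comparison over 22626 probe sets, 100 of 100 probe sets planted at a log2 change of 2.5 passed 2-fold. That planted size is well past the 2-fold limit, so the recovery tells little about smaller changes. Changes were planted only in probe sets with a mean signal well above the floor. No dim probe set was planted, so the recovery cannot speak for Smpd2, Sptlc2 or Ugcg. The number of arrays limits the precision.

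All 9 enzymes are described, from the other sphingolipid lists the highest, the lowest and each gene past 1.5-fold, from the markers the highest and the lowest measured ratio, and others where said. The enzymes and lists were chosen with earlier results of these data known. Scaling, floor, pseudocount and probe set choice were varied in 10 alternatives. The calculations used Python 3.11.15 with numpy, pandas and statsmodels.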

Additional observations from a re-analysis of the deposited data

How the results depend on the processing

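The median log2 ratio of the measured sphingolipid probe sets stayed negative under all 10 alternatives. It lay between −0.18 (floor at the 25th percentile, 11.8, with 14 probe sets measured) and −0.12 (quantile normalization). Read from its brightest probe set or the mean of its measured ones, each enzyme's ratio or bound kept its sign wherever it could be computed. Dimmer probe sets were not followed, and a dim probe set of Sptlc1 went the other way (21.5 on the orujo array and 3.4 on the olive array). Counts moved where dim probe sets were let in. With the floor at the 25th percentile, 1 probe set was at least 2-fold lower (Smpd2) and 4 were at least 1.5-fold lower (Smpd2, 2 of Ugcg and 1 of Sptlc1), while 9.29% of all measured probe sets were then at least 1.5-fold lower. Of the other sphingolipid genes, 1 probe set each, 3 of 41 measured were then at least 1.5-fold higher and 3 of 41 at least 1.5-fold lower. The background at hand for that floor is by probe set and not by gene, 8.17% higher and 9.29% lower. Both counts are close to it. With log2(intensity + 35.6) over all probe sets, Smpd2 was the only 1 of 16 at least 2-fold lower and the only 1 at least 1.5-fold lower, against 2.29% of all probe sets at least 1.5-fold lower. The share of all probe sets past 2-fold is not at hand for these settings, so their 2-fold counts have no background beside them. Smpd2 had a log2 ratio of −2.64 with the lower floor, −1.73 with log2(intensity + 35.6) and a bound of −0.80 with the floor at the 75th percentile (101.2), since a higher floor shortens the bound by construction. Within 1.5-fold of Smpd2, a width chosen after seeing the data, 7 of 2499 probe sets (0.280%) were below the floor on the other array. Rescaling, median centring, quantile normalization and loess moved 0 of 16 results each. Signal over background limits Smpd2, Sptlc2 and Ugcg, whose values lie near or below the floor on at least 1 array. No paired analysis was possible because each diet has 1 array.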

Other observations

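In the RefSeq gene table the start of Smpd2 borders Ppil6, which was not analysed here, and its next neighbours are Mical1 and Cd164. Cd164, a sialomucin, had 655.4 on the orujo array and 683.6 on the olive array (log2 ratio −0.06). Both probe sets of Mical1 were below the floor on both arrays, the first with 0.8 on orujo and 5.2 on olive, the second with 2.3 on orujo and 0.8 on olive. Of these neighbours Cd164 was the one measured. The genes in this section were named after their values were seen.

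The probe set annotated to both Cers1 and Gdf1 was not named for either gene. It had 3.0 on the orujo array and 2.6 on the olive array, both below the floor. Cerk, ceramide kinase, had 11.4 on orujo and 4.1 on olive, and Sphk1, a sphingosine kinase, had 4.0 on orujo and 13.2 on olive, so Cerk and Sphk1 were not read above background by these probe sets. Sphk2, the other sphingosine kinase, was measured at 108.5 on the orujo array and 122.3 on the olive array (log2 ratio −0.17).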
